A study of Mus musculus with 15 samples.

Results

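The receptors for the Fc part of immunoglobulin G on mouse myeloid cells and the signalling chain that several of them share form a small family, and 4 of its genes were described here: Fcgr1, Fcgr2b, Fcgr3 and Fcer1g. They were chosen by gene symbol, as the probe sets whose single symbol was 1 of these 4, which gave 6 of 12422 probe sets tested and 4 of 8251 genes with a symbol. Fcgr1 and Fcer1g each had 2 probe sets, and the one with the higher mean was taken as the main one. Dendritic cells (DC) were grown from bone marrow of female mice, 6 to 8 weeks old, of the NOD strain, which becomes diabetic through autoimmunity. Cultures received GM-CSF at 1 ng/ml for 4 days. The protocol of GM4 0 h replicate 1 gives neither doses nor gradient, and those of its group are assumed for it here. In GM4 DC interleukin-4 at 1 ng/ml was added, while GM DC had GM-CSF alone, and the series title calls the first therapeutic and the second not. Cells were purified on metrizamide gradients, of 16% for GM DC and 14.5% for GM4 DC, and given LPS at 10 µg/ml together with interferon-γ at 50 ng/ml. RNA was taken at 0, 6 and 20 h, on 3, 2 and 2 arrays of GM DC and on 3, 3 and 2 arrays of GM4 DC. The labels call the replicates biological without saying whether each came from its own mice, so p-values measure the spread between these samples. No unstimulated cells kept for 6 or 20 h were among the samples, so the stimulus and the time in culture cannot be told apart.

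Fc receptors let a cell sense antigen that is bound by antibody. As background, Fcgr1 (CD64) binds monomeric immunoglobulin G with high affinity and Fcgr3 (CD16) binds immune complexes. Both activate the cell through the gamma chain encoded by Fcer1g, an adaptor whose tyrosine motif (ITAM) recruits the kinase Syk, and Fcgr3 needs that chain to reach the surface. Fcgr2b (CD32B) is the inhibitory receptor. It carries an inhibitory tyrosine motif (ITIM) that recruits the phosphatase SHIP1, the product of Inpp5d. On DC, uptake through these receptors feeds antigen presentation, and the balance of activating and inhibitory receptors is known to set how readily immune complexes mature the cell. Interferon-γ is a known inducer of Fcgr1 in mouse and human myeloid cells.

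The genes lie on 2 chromosomes of the RefSeq table (GRCm38.p6). Fcgr1 is at chr3:96282909-96293969. The others share a stretch of chromosome 1, with Fcgr2b at chr1:170960558-170976071, Fcgr3 at chr1:171051169-171065915 and Fcer1g at chr1:171229572-171234349. The 250 bases before the annotated start are printed for the 3 genes whose main probe sets read well above the floor, because Fcgr1 and Fcer1g moved alike and Fcgr2b did not. Each is on the minus strand, 5′ to 3′, from RefSeq, whose reference strain is not NOD. Capitals mark the matches found to TTCNNNNGAA, the spacing preferred by the interleukin-4 factor STAT6, and to GAGGAA, the core bound by the myeloid factor PU.1, both searched on both strands.
Fcgr1, chr3:96293970-96294219: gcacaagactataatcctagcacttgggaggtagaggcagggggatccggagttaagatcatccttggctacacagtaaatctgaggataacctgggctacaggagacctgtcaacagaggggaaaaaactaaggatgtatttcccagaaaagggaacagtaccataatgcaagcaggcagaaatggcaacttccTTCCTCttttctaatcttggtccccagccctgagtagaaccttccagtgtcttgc
Fcer1g, chr1:171234350-171234599: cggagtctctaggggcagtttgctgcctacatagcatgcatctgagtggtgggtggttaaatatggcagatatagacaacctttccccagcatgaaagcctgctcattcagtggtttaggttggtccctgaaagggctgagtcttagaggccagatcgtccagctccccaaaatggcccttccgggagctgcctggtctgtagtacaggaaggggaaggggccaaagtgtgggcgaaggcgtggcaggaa
Fcgr2b, chr1:170976072-170976321: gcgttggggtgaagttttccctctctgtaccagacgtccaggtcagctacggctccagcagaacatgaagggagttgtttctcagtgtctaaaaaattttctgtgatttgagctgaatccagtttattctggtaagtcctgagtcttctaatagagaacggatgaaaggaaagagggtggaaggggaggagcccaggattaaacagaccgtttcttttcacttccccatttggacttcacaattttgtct
In the Fcgr1 window there was 1 match to the PU.1 core, which reads TTCCTC on the strand of the gene, from 55 to 50 bases before the start, and 0 to the STAT6-type site. The windows of Fcer1g and Fcgr2b held 0 matches to either motif. The 2 overlapping windows annotated for Fcgr3 held 1 PU.1 core and 0 STAT6-type sites. Among 32851 windows of this length, 5.85% held the STAT6-type site and 23.3% the PU.1 core. A match is a run of letters in this window and was not tested as a binding site. The STAT6-type search allowed only a spacer of 4 bases. STAT sites of a shorter or longer spacing, and response sites for interferon-γ, were not searched for. The counts of 0 therefore do not mean that a window, that of Fcgr1 included, holds no STAT site.

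The deposited values are array signals scaled to a common level. Median signal was 40.1 to 48.5 per array, 29.7% to 35.3% of probe sets per array read below 16, and replicates of a group correlated at 0.967 to 0.988. Differences below are of log2(signal + 16), the GM4 value minus the GM value or the later time minus the earlier, with limma's standard error after ±. A gene passed when its p, adjusted by Benjamini-Hochberg over all 12422 probe sets, was under 0.05. On the Gapdh controls, 3′ over 5′ signal, a ratio that goes up when RNA is degraded, was 1.18 to 2.46 on GM arrays and 1.03 to 1.48 on GM4 arrays. That of β-actin was 1.43 to 2.26 and 1.13 to 1.45. RNA quality therefore moved with the culture, as did the gradient. With these ratios as a covariate the differences between cultures of Fcgr1, Fcgr2b and Fcer1g became larger, as given beside them. The β-actin ratios hardly overlap between cultures, so that fit cannot separate RNA quality from culture. No conclusion on RNA quality is drawn from it. A bulk signal does not tell fewer cells of a type from less RNA per cell. All 18 genes listed as DC markers were measured, and none was below 16 on all arrays of a group. Itgax (CD11c) averaged 1153 in GM and 1027 in GM4 DC at 0 h and fell by 20 h, while the costimulatory receptor Cd40 rose by 2.96 ± 0.13 in GM and 2.11 ± 0.13 in GM4 DC. From 0 to 20 h 3 of the 18 rose and 1 fell in GM DC (11.0% and 16.0% of all probe sets). In GM4 DC 1 rose and 3 fell (8.71% and 12.3%), Relb (-1.22 ± 0.26) and Ccr7 (-0.78 ± 0.26) besides Itgax. The list medians were -0.09 and -0.53.

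Fcgr1 was lower in GM4 than in GM DC at every time, and in both cultures it was highest at 20 h. In GM DC the signal was 1028, 1079 and 686 at 0 h, 1555 and 1117 at 6 h, then 1974 and 1687 at 20 h. In GM4 DC it was 453, 470 and 376 at 0 h, 527, 434 and 254 at 6 h, then 921 and 807 at 20 h. No GM4 array reached the lowest GM array of its own time, while GM4 DC at 20 h overlapped unstimulated GM DC. From lowest to highest the groups ran GM4 6 h, GM4 0 h, GM4 20 h, GM 0 h, GM 6 h and GM 20 h, a span of 4.51-fold, and in that order GM4 6 h overlapped GM4 0 h and GM4 20 h overlapped GM 0 h.

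**Figure D1:**
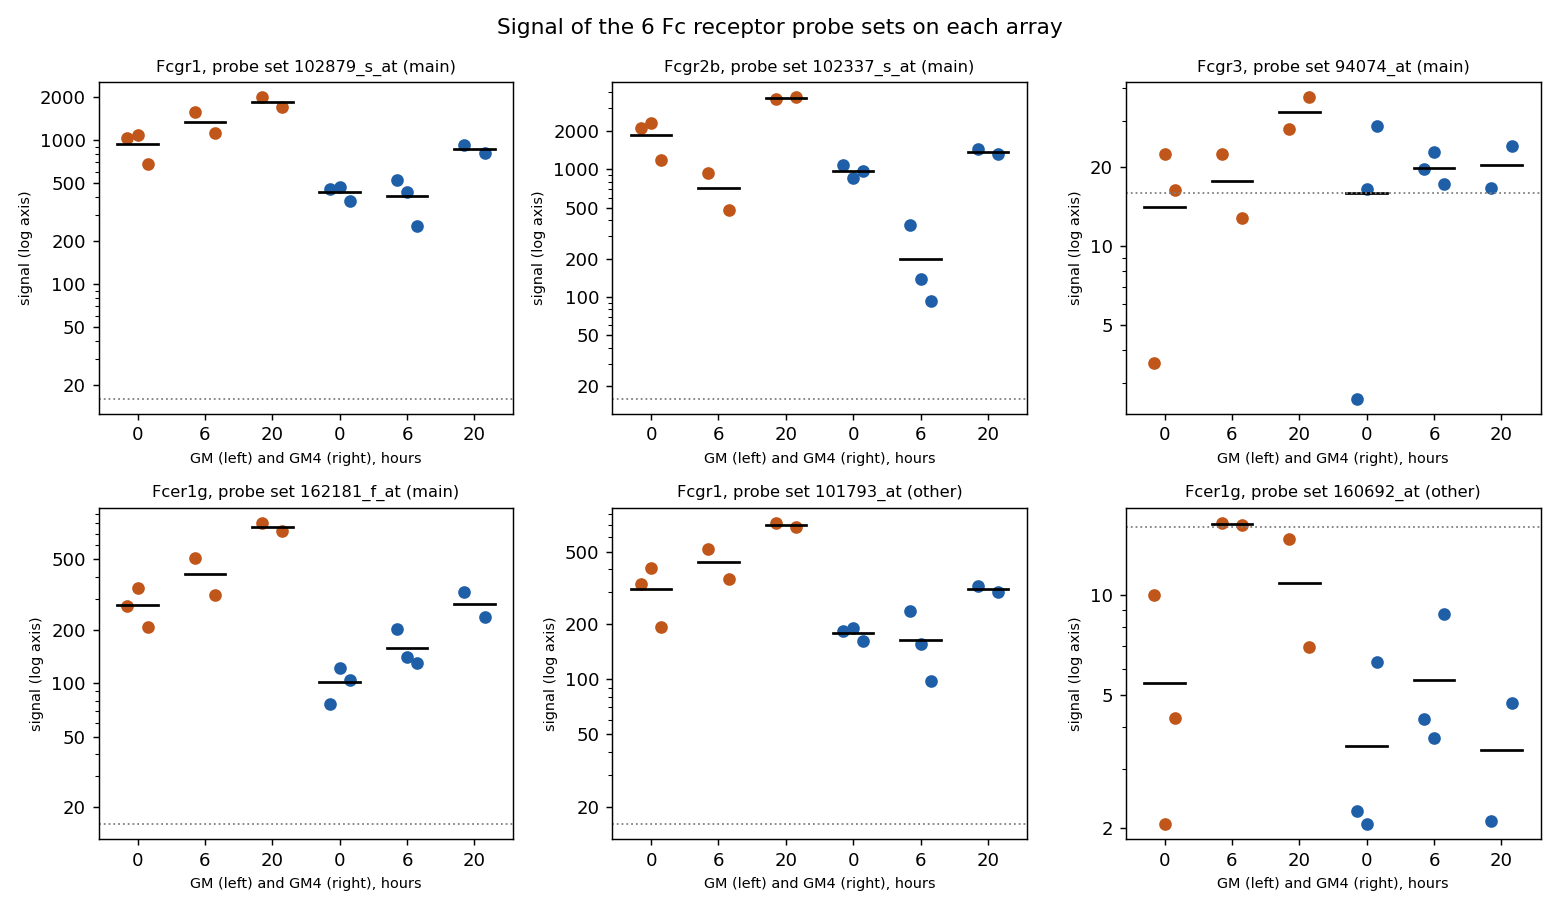
Signal on each array (log axis) of the 6 probe sets by culture and hours, with points for arrays, orange for GM DC and blue for GM4 DC, black bars for group means and a dotted line at 16. Fcgr1, Fcgr2b and the main Fcer1g probe set lie lower in GM4 DC at each time, and the Fcgr3 and other Fcer1g probe sets lie near the dotted line.

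Between cultures the Fcgr1 difference was -1.06 ± 0.23 at 0 h (2.08-fold, adjusted p = 0.00815) and -1.72 ± 0.26 at 6 h (3.30-fold, adjusted p = 0.000858). At 20 h it was -1.07 ± 0.29, with an adjusted p of 0.0502 that missed the threshold. Small changes of processing put that value on the other side: it passed with a filter on dim probe sets (adjusted p = 0.0251) and without the 2 doubted arrays, GM 0 h replicate 3 and GM 6 h replicate 1, (0.0338). It passed too with the replicate number as a block in the fit (adjusted p = 0.00278). With the RNA quality covariate the 3 differences were -1.70, -2.38 and -1.88. The other Fcgr1 probe set followed the main one with r = 0.979 over the 15 arrays, and its differences were -0.69 ± 0.27, -1.39 ± 0.30 and -1.13 ± 0.34, of which the one at 6 h passed.

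Over time Fcgr1 rose from 0 to 20 h by 0.99 ± 0.26 in GM DC (1.98-fold, adjusted p = 0.0114) and by 0.97 ± 0.26 in GM4 DC (1.96-fold, adjusted p = 0.0168). At 6 h the GM value was 0.52 ± 0.26 above 0 h (adjusted p = 0.184) and the GM4 value -0.14 ± 0.24 (adjusted p = 0.78). The rise from 6 to 20 h passed in GM4 DC (1.12 ± 0.26, adjusted p = 0.0128) and not in GM DC (0.46 ± 0.29, adjusted p = 0.345). The rise in GM DC did not pass without GM 20 h replicate 1 (0.87). That in GM4 DC did not pass without replicate 3 of GM4 0 h (0.88), or without replicate 1 (0.88) or 2 (1.07) of GM4 20 h, and the rise from 6 to 20 h in GM4 DC not without GM4 20 h replicate 1 (1.02) or 2 (1.21).

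Fcer1g, the shared signalling chain, followed much the same course. Its signal in GM DC was 274, 347 and 207 at 0 h, 512 and 317 at 6 h, then 802 and 722 at 20 h. In GM4 DC it was 76.0, 122 and 105 at 0 h, 202, 141 and 131 at 6 h, then 326 and 238 at 20 h. Every GM4 array was below every GM array of its time. GM4 DC at 20 h, at 282 ± 62.2 (SD, n = 2), had about the level of GM DC before stimulation, at 276 ± 70.0 (SD, n = 3).

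The difference between cultures was near constant, at -1.31 ± 0.23 at 0 h (2.48-fold, adjusted p = 0.0017), -1.29 ± 0.26 at 6 h (2.45-fold, adjusted p = 0.00569) and -1.40 ± 0.28 at 20 h (2.64-fold, adjusted p = 0.0114). It was -1.65, -1.64 and -1.83 with the RNA quality covariate. Without GM 6 h replicate 1, the higher of that pair, the 6 h difference was -0.96 and did not pass (adjusted p = 0.0993). The 20 h difference did not pass without replicate 1 (-1.33) or 2 (-1.47) of GM 20 h, or without replicate 2 of GM4 20 h (-1.19). From 0 to 20 h Fcer1g rose by 1.44 ± 0.26 in GM DC (2.71-fold, adjusted p = 0.000691) and by 1.35 ± 0.26 in GM4 DC (2.55-fold, adjusted p = 0.00189). Both stood without any single array. The step from 6 to 20 h in GM DC, 0.89 ± 0.28 (adjusted p = 0.046), was lost on leaving out any 1 of 9 arrays and under 5 other settings, and that in GM4 DC, 0.78 ± 0.26 (adjusted p = 0.0698), did not pass. The steps from 0 to 6 h, 0.55 ± 0.26 in GM and 0.57 ± 0.23 in GM4 DC, did not pass either (adjusted p = 0.152 and 0.123).

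The 2 Fcer1g probe sets disagreed in level. The other probe set read 2.04 to 16.4 on the 15 arrays, at the 17.4 percentile of mean signal against 82.2 for the main one. It differed between cultures by -0.12 ± 0.15, -0.59 ± 0.17 and -0.46 ± 0.19 at the 3 times and passed at 6 h, with a rise of 0.61 ± 0.17 from 0 to 6 h in GM DC as its other call. At 20 h it differed from 0 h by 0.33 ± 0.17 in GM and -0.004 ± 0.17 in GM4 DC, so the rise of Fcer1g at 20 h rests on the main probe set alone.

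**Figure D2:**
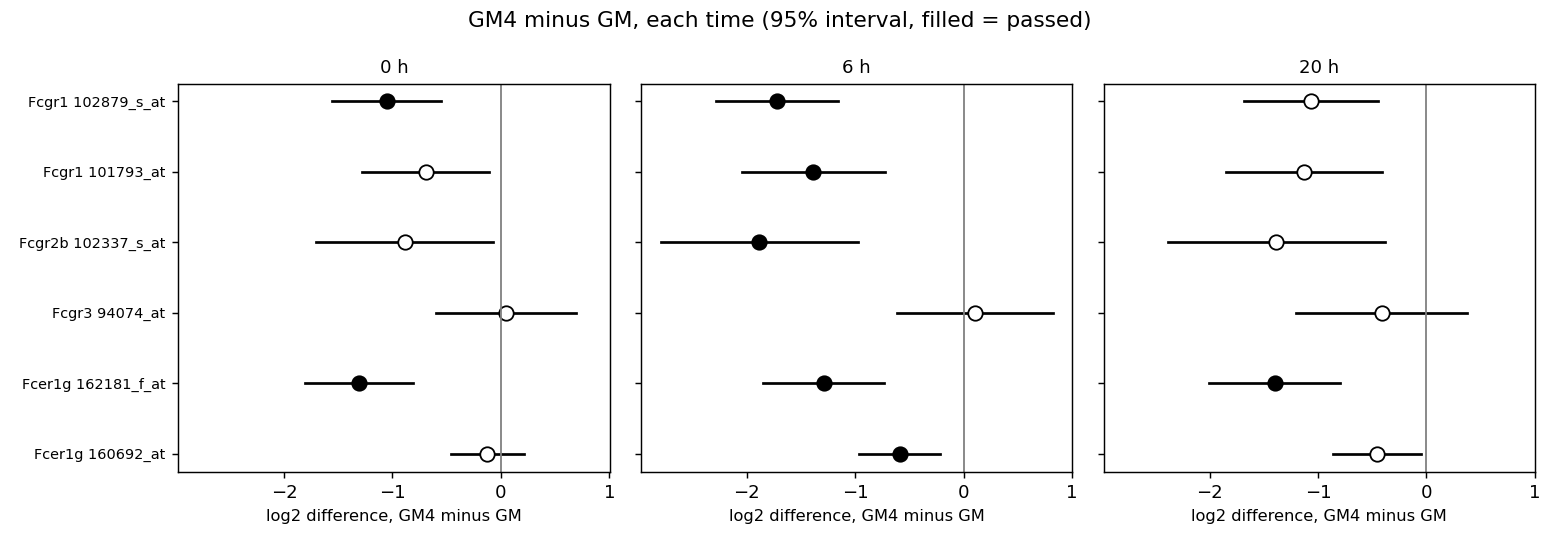
Log2 difference of GM4 minus GM DC at each time for the 6 probe sets, with 95% intervals, filled where the adjusted p was under 0.05. The main probe sets of Fcgr1, Fcgr2b and Fcer1g lie left of 0 at each time, between -0.89 and -1.88, and Fcgr3 straddles 0.

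Fcgr2b, the inhibitory receptor, had a course of its own: it fell at 6 h and was high again at 20 h in both cultures. In GM DC the signal was 2120, 2303 and 1178 at 0 h, 935 and 481 at 6 h, then 3558 and 3656 at 20 h. In GM4 DC it was 1086, 849 and 961 at 0 h, 370, 138 and 92.5 at 6 h, then 1440 and 1307 at 20 h. The 6 h arrays were below all 0 h and 20 h arrays of their culture, and the GM4 arrays below all GM arrays of their time. The order of the groups ran GM4 6 h, GM 6 h, GM4 0 h, GM4 20 h, GM 0 h and GM 20 h, with an overlap between GM 6 h and GM4 0 h and between GM4 20 h and GM 0 h. From GM4 DC at 6 h, 200 ± 148 (SD, n = 3), to GM DC at 20 h, 3607 ± 69.3 (SD, n = 2), the span was 18.0-fold.

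From 0 to 6 h Fcgr2b fell in both cultures, with a change of -1.40 ± 0.42 in GM DC (2.63-fold, adjusted p = 0.027) and of -2.39 ± 0.38 in GM4 DC (5.24-fold, adjusted p = 0.000663). From 6 to 20 h it rose by 2.40 ± 0.47 in GM DC (5.27-fold, adjusted p = 0.00268) and by 2.90 ± 0.42 in GM4 DC (7.45-fold, adjusted p = 0.000574). The fall in GM DC did not pass without replicate 1 (-1.28) or 2 (-1.22) of GM 0 h, or without replicate 2 of GM 6 h (-0.93). The other 3 steps stood without any single array and under the other settings tried. Against 0 h, the 20 h level was 1.00 ± 0.42 higher in GM DC (adjusted p = 0.102) and 0.51 ± 0.42 higher in GM4 DC (adjusted p = 0.47), and neither passed.

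Between cultures the Fcgr2b difference passed at 6 h, at -1.88 ± 0.42 (3.69-fold, adjusted p = 0.011). It was -0.89 ± 0.38 at 0 h (adjusted p = 0.149) and -1.38 ± 0.47 at 20 h (adjusted p = 0.12), and without GM4 6 h replicate 1, the highest of its group, both passed (adjusted p = 0.0409 and 0.0278). The 20 h difference passed too with the replicate number as a block in the fit (adjusted p = 0.036). That the culture difference changes between the 3 times is not shown, as no difference of responses passed. Without GM 6 h replicate 1 the 6 h value was -1.41 (adjusted p = 0.155). With the RNA quality covariate the 3 values were -1.71, -2.73 and -2.44, of which the first passed too (adjusted p = 0.046). This probe set is the only one for Fcgr2b. Its _s_at suffix, which the main Fcgr1 probe set shares, and the _f_at suffix of the main Fcer1g probe set say that probes can match related transcripts, and for Fcgr1 and Fcer1g this was not tested. The extracellular parts of Fcgr2b and Fcgr3 are closely alike, so a share of signal from Fcgr3 was not tested.

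**Figure D3:**
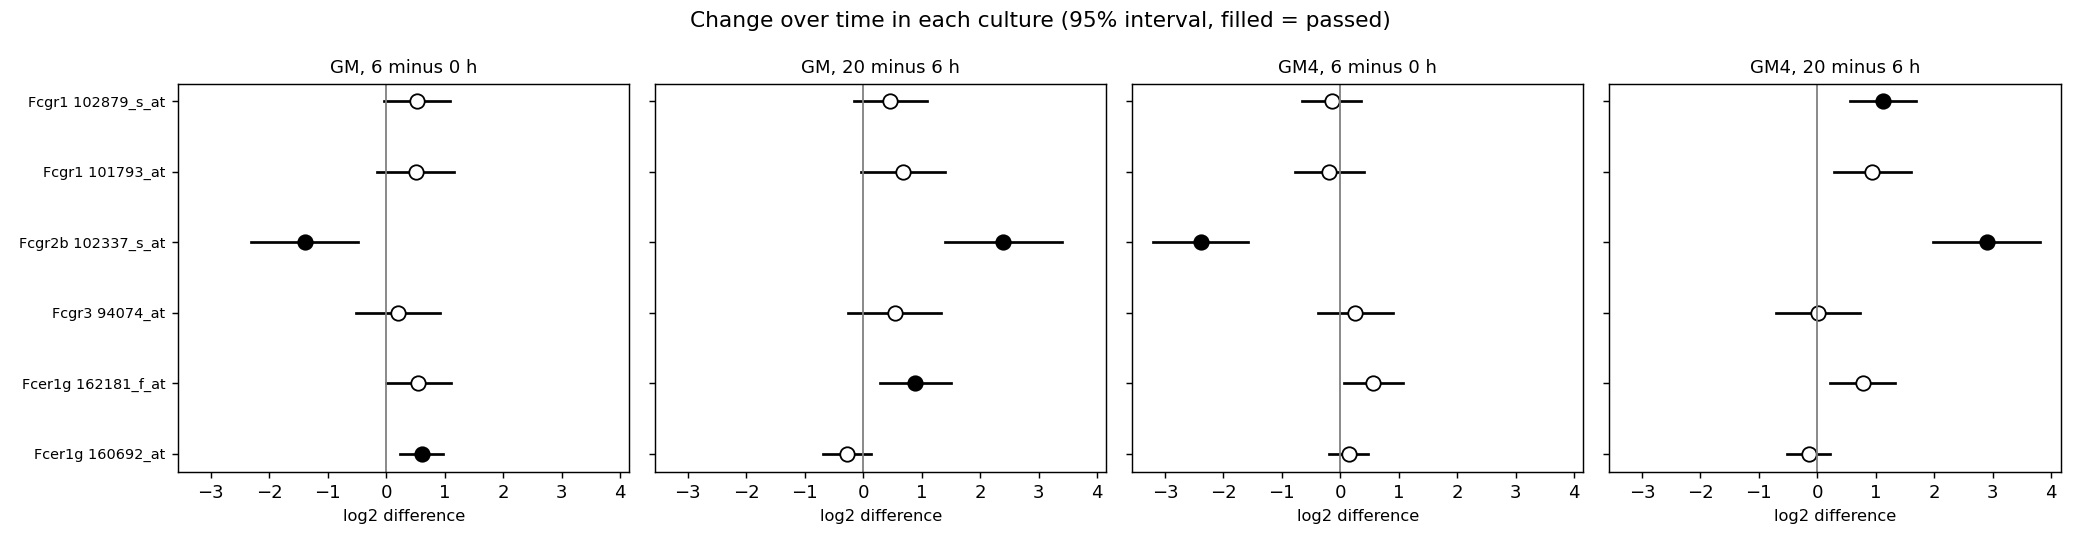
Log2 change from 0 to 6 h and from 6 to 20 h in GM and GM4 DC for the 6 probe sets, with 95% intervals, filled where the adjusted p was under 0.05. Fcgr2b lies at -1.40 and -2.39 in the first step and at 2.40 and 2.90 in the second, and Fcgr1 and the main Fcer1g probe set never pass below 0.

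The Fcgr3 probe set read 2.61 to 36.9 on the 15 arrays, near the floor and at the 34.4 percentile of mean signal. Group means were 14.1, 17.7 and 32.5 in GM DC and 15.9, 19.9 and 20.4 in GM4 DC at 0, 6 and 20 h. Its arrays overlapped between most groups, with GM DC at 20 h (28.0 and 36.9) highest. Differences between cultures were 0.05 ± 0.30, 0.10 ± 0.33 and -0.41 ± 0.37, with 95% intervals of -0.59 to 0.69, -0.61 to 0.82 and -1.20 to 0.37, and no comparison of Fcgr3 passed. With 1 dim probe set these values do not show the level of the transcript.

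Counted together, of the 4 genes 2 were lower in GM4 DC at 0 h, where 7.12% of all probe sets were lower, 3 at 6 h (background 4.74%) and 1 at 20 h (background 1.56%). The median difference was -0.97, -1.51 and -1.23 at the 3 times, against -0.06, -0.04 and -0.04 over all probe sets. From 0 to 6 h 1 gene fell in GM DC (background 15.7% lower) and 1 in GM4 DC (10.0% lower), Fcgr2b each time. From 0 to 20 h 2 rose in GM DC (11.0% higher) and 2 in GM4 DC (8.71% higher), Fcgr1 and Fcer1g in both. From 6 to 20 h 2 rose in GM DC, Fcgr2b and Fcer1g (8.70% higher), and 2 in GM4 DC, Fcgr2b and Fcgr1 (5.68% higher).

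Whether the cultures responded differently was tested as a difference of changes, and 0 of the 4 genes passed at 6 h, where 0.958% of probe sets did in either direction, or at 20 h, where 1.26% did. The changes from 0 to 6 h in GM4 minus those in GM DC were -0.67 ± 0.35 for Fcgr1, -0.99 ± 0.57 for Fcgr2b and 0.02 ± 0.35 for Fcer1g. The unadjusted p was 0.08, 0.103 and 0.959 in limma. To 20 h they were -0.01 ± 0.37, -0.50 ± 0.60 and -0.09 ± 0.37. The 95% interval at 6 h ran from -2.22 to 0.23 for Fcgr2b and from -1.42 to 0.09 for Fcgr1, so larger falls in GM4 DC of over 1 log2 unit lie within them.

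Across the 15 arrays Fcgr1 and Fcer1g moved together with r = 0.933, Fcgr1 and Fcgr2b with 0.738, and Fcgr2b and Fcer1g with 0.586. These arrays share 6 groups, so r mostly describes the order of the groups. Of 3173 genes with a mean log2 value of at least 7, those most like Fcgr1 were the peptidase Cndp2 (0.955), the transporter Abcc5 (0.941) and the inhibitory receptor Pirb (0.932). Fcer1g was most like Abcc5 (0.955), the transcription factor Cebpb (0.952) and the interferon receptor chain Ifnar2 (0.95). The gene least like both was Cmc2, at -0.959 for Fcgr1 and -0.958 for Fcer1g. Fcgr2b was most like the chemokine receptor Ccr1 (0.952), the vesicle protein Vamp4 (0.95) and Prune1 (0.944), and least like the sorting nexin Snx4 (-0.938). Ccr1 signal averaged 381, 204 and 638 in GM DC and 208, 77.5 and 384 in GM4 DC at 0, 6 and 20 h, the same dip as Fcgr2b. For Fcgr3, near the floor, the closest were Tbl1x (0.814), Cyp4b1 (0.808) and Sin3a (0.771), and the least like was Dnajc3 (-0.746).

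The genes around the receptors are given as counts of those that passed, to be read against the share of all probe sets that did. At 0 h 6.86% were higher and 7.12% lower in GM4 than in GM DC. At 6 h the shares were 6.39% higher and 4.74% lower, and at 20 h 3.14% higher and 1.56% lower. From 0 to 6 h 8.52% rose and 15.7% fell in GM DC, and 5.84% rose and 10.0% fell in GM4 DC. From 0 to 20 h 11.0% rose and 16.0% fell in GM DC, and 8.71% rose and 12.3% fell in GM4 DC.

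Of 11 genes in the list of other Fc receptors 7 were measured, and Fcgr4 was not among them. In each group 3 or 4 of the 7 were below 16 on all arrays. Between cultures 2 were lower in GM4 DC at 0 h, Fcrla, an intracellular Fc receptor-like protein (-0.93 ± 0.20), and Pigr, the polymeric immunoglobulin receptor (-0.65 ± 0.18). The other 5 did not pass, nor did any of the 7 at 6 or 20 h. The antibody-binding ubiquitin ligase Trim21 rose from 0 to 20 h by 0.94 ± 0.27 in GM and 1.27 ± 0.27 in GM4 DC. Fcer1a and Ms4a2, which join the gamma chain in the IgE receptor of mast cells, were below 16 on all 15 arrays.

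Among receptors and adaptors that use the gamma chain or one like it, 5 of 16 were measured, and 3 were lower in GM4 DC at 0 h and at 6 h and 0 at 20 h. They were the C-type lectin Clec4d (-2.75 ± 0.19 and -2.75 ± 0.22), its partner Clec4e (Mincle; -0.79 ± 0.21 and -2.17 ± 0.24), a gamma-chain receptor, and Tyrobp (DAP12; -0.87 ± 0.17 and -1.08 ± 0.19), an ITAM adaptor that parallels Fcer1g. The list median was -0.79, -1.08 and -0.03 at the 3 times, against -0.06, -0.04 and -0.04 over all probe sets. Clec4d rose from 0 to 20 h by 1.10 ± 0.22 in GM DC and by 3.20 ± 0.22 in GM4 DC, from a signal of 97.6 ± 19.2 (SD, n = 3) to 1020 ± 114 (SD, n = 2) in the latter.

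Activating signalling downstream of the ITAM moved in both directions. Of 39 genes 29 were measured, of which 4 were higher and 3 lower in GM4 DC before stimulation, 7 higher and 3 lower at 6 h, and 3 higher and 2 lower at 20 h, with medians of -0.05, 0.20 and -0.09. Over all probe sets 6.86% were higher and 7.12% lower before stimulation, 6.39% and 4.74% at 6 h, and 3.14% and 1.56% at 20 h. The Src-family kinase Fyn was higher by 2.44 ± 0.23 at 0 h and 2.66 ± 0.29 at 20 h. The phosphoinositide 3-kinase subunit Pik3r1 was higher by 1.57 ± 0.24 at 0 h, and the adaptor Lat2 was lower, with a difference of -1.71 ± 0.18. With the RNA quality covariate the 7 higher at 6 h were 1, and without the doubted arrays 3. From 0 to 6 h 6 rose and 6 fell in GM DC and 4 rose and 4 fell in GM4 DC, and Lat2, which fell in both, changed by -2.13 ± 0.20 and -0.99 ± 0.18.

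In the inhibitory ITIM list genes moved both ways at 6 h, and Inpp5d fell in both cultures, as Fcgr2b did. Of 16 genes 12 were measured, and from 0 to 6 h 2 rose and 3 fell in GM DC and 2 rose and 4 fell in GM4 DC. Over all probe sets 15.7% fell in GM DC and 10.0% in GM4 DC. Ptpn11 rose in GM DC (1.02 ± 0.24) and Dok1 in GM4 DC (1.03 ± 0.21), and the list medians were 0.03 and -0.12. Inpp5d, which encodes SHIP1, had a change of -1.94 ± 0.18 in GM DC (adjusted p = 4.31e-06) and of -1.93 ± 0.17 in GM4 DC (adjusted p = 2.53e-06). Its signal averaged 327, 75.3 and 356 in GM DC and 290 ± 7.42 (SD, n = 3), 65.2 and 234 in GM4 DC at 0, 6 and 20 h. The phosphatase Ptpn22 fell too, with changes of -2.39 ± 0.32 and -1.37 ± 0.29, and so did the adaptor Dok2, with -1.91 ± 0.22 and -1.64 ± 0.20. All GM arrays at 6 h read Ptpn22 below 16, near the floor, so the size of its fall in GM DC is uncertain. Dok2 stayed low at 20 h, with differences from 0 h of -1.88 ± 0.22 and -1.37 ± 0.22, unlike Inpp5d, whose arrays in GM DC at 20 h read 350 and 363 against 300 to 363 at 0 h. Between cultures 3 genes of the list were lower in GM4 DC at 0 h and at 6 h, the receptors Sirpa (-1.32 ± 0.13 and -1.35 ± 0.15) and Pirb (-0.95 ± 0.30 and -1.30 ± 0.33) and Dok2 (-0.74 ± 0.22 at 6 h), and 0 at 20 h. With the RNA quality covariate these counts were 5, 5 and 3, and without the doubted arrays 1 at 6 h and 2 at 20 h.

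**Figure D4:**
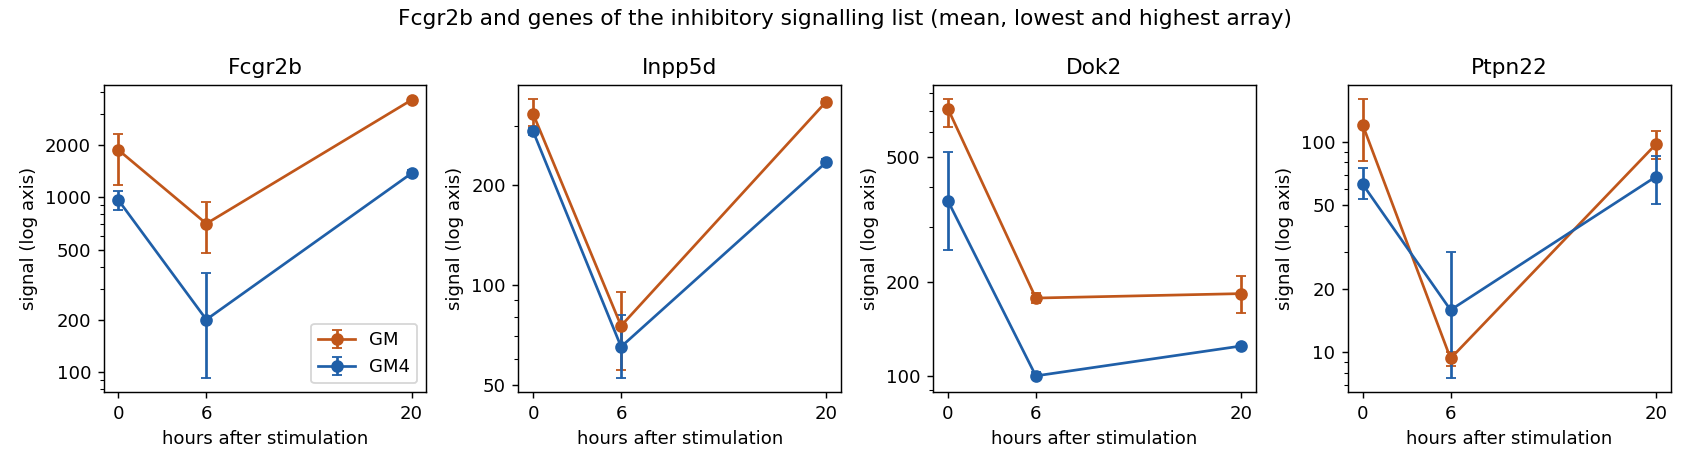
Mean signal (log axis) at 0, 6 and 20 h of Fcgr2b and 3 genes of the inhibitory list that fell at 6 h, in GM (orange) and GM4 DC (blue), with bars from the lowest to the highest array. Fcgr2b, Inpp5d and Ptpn22 are low at 6 h and higher at 20 h, and Dok2 stays low. Ptpn22 is below 16 in GM DC at 6 h.

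The interferon-γ and interleukin-4 list, with 19 of 23 genes measured, includes factors known to act on Fc receptor genes. From 0 to 6 h 11 rose and 2 fell in GM DC, against 8.52% and 15.7% of all probe sets, and 8 rose and 2 fell in GM4 DC, against 5.84% and 10.0%. The interferon-γ target Irf1 rose by 2.84 ± 0.13 and 1.90 ± 0.12. Before stimulation 9 were higher and 2 lower in GM4 DC, while 4 were lower at 6 h and 5 at 20 h with 0 higher. Among those higher at 0 h were Jak2 (1.78 ± 0.17), Socs1 (1.47 ± 0.20) and Tyk2 (1.10 ± 0.33), and Socs1 was lower at 6 h (-1.05 ± 0.22). Cebpb, a myeloid transcription factor, was lower at each time, at -1.41 ± 0.16, -1.76 ± 0.17 and -0.76 ± 0.19. The part of these genes in the receptor signals was not tested. Spi1, which encodes PU.1, differed at 6 h by -0.89 ± 0.15 (adjusted p = 0.00185).

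Markers of monocytes and macrophages, cells that also express these receptors, moved with the culture. Of 15 such genes 12 were measured, and 9 were lower in GM4 DC at 0 h, 10 at 6 h and 4 at 20 h, with 0 higher at any time. Their summed signal was 13300 to 15900 at 0 h, 17600 to 24130 at 6 h and 14010 to 14750 at 20 h in GM DC, and 4303 to 4839, 4887 to 6137 and 8113 to 8478 in GM4 DC. The lysozyme Lyz2 was lower, with a difference of -1.68 ± 0.17, -2.68 ± 0.19 and -1.66 ± 0.21. Over time the list moved both ways: from 0 to 20 h 3 rose and 5 fell in GM DC, and 4 rose and 4 fell in GM4 DC. The scavenger receptor Marco rose by 4.61 ± 0.34 and 4.48 ± 0.34 and Adgre1 (F4/80) by 2.51 ± 0.27 and 3.54 ± 0.27, while Mrc1, Ccr2 and Cd93 were below 16 on the GM4 arrays at 20 h. Of 18 DC markers 11 were higher in GM4 DC at 0 h, 6 at 6 h and 5 at 20 h, with 0 lower. The part of these cell markers in the lower Fc receptor signals was not tested.

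**Figure D5:**
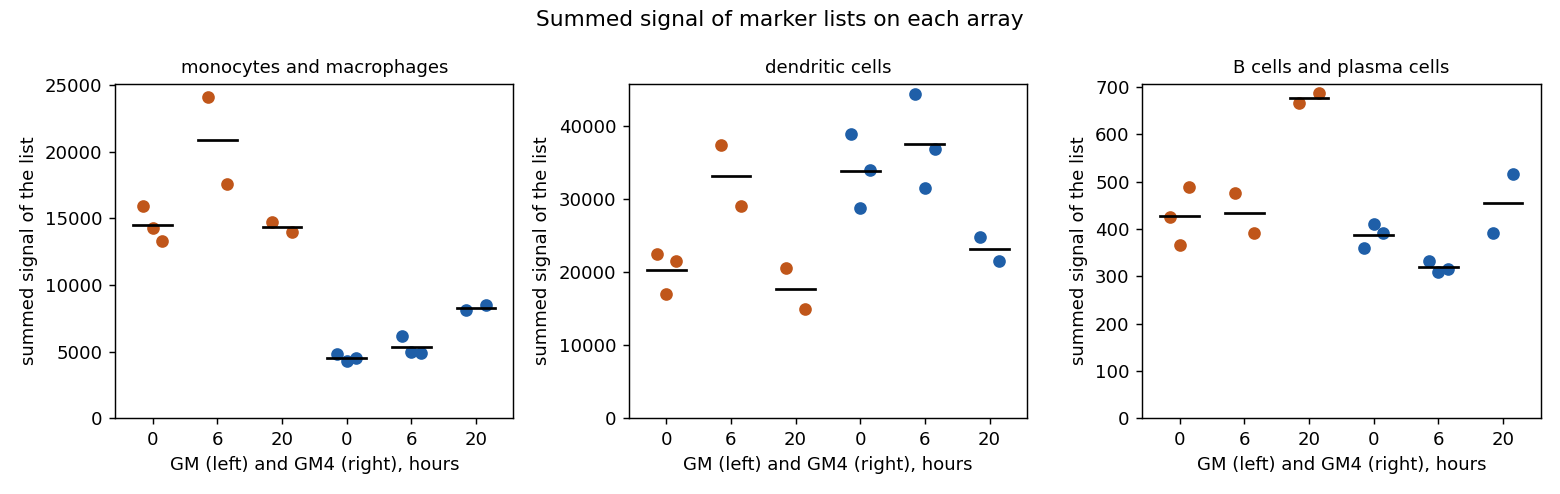
Summed signal on each array of the monocyte and macrophage, DC, and B and plasma cell marker lists by culture and hours, with black bars for group means. The sums of the monocyte and macrophage list do not overlap between cultures at any time, and those of the B and plasma cell list stay below 700.

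The other marker lists gave these counts, and their part in the receptor signals was not tested. Of 14 neutrophil genes 3 were higher and 2 lower in GM4 DC at 0 h, and 1 was lower at 6 h and 1 at 20 h. From 0 to 20 h 2 of them rose and 7 fell in GM DC, and 2 rose and 9 fell in GM4 DC. Of 10 B and plasma cell genes 1 was higher and 1 lower at 0 h, and 1 lower at 6 and at 20 h, the plasma cell marker Sdc1. Sdc1 also fell from 0 to 6 h, when Fcgr2b did, with changes of -0.88 ± 0.17 in GM and -1.71 ± 0.15 in GM4 DC. Over that step Cd79a rose in GM DC (0.82 ± 0.20), and the list medians were 0.20 in GM and 0.01 in GM4 DC. Of 9 T and NK cell genes 1 was higher and 1 lower at 0 h and 0 later, with 6 to 8 of the 9 below 16 in every group. Of 13 mast cell and basophil genes 2 were higher and 1 lower at 0 h, 1 higher at 6 h and 0 at 20 h. Of 5 erythroid and megakaryocytic genes 0 passed between cultures, and Klf1 rose from 0 to 20 h by 0.86 ± 0.28 in GM and 0.90 ± 0.28 in GM4 DC.

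On GM 6 h replicate 1 the monocyte and macrophage sum was 24130 against 17600 in the other array of its group. Its DC marker sum was higher too, at 37400 against 29050. Neither is particular to this array. Replicate 1 had the highest DC marker sum in every group. It also had the highest monocyte and macrophage sum in every group but GM4 20 h. GM 6 h replicate 1 and GM 0 h replicate 3, which had the highest Gapdh ratio, were doubted. Without both, the 6 h differences were -1.41 for Fcgr2b (adjusted p = 0.118) and -0.96 for Fcer1g (adjusted p = 0.0694), the same sizes as without GM 6 h replicate 1 alone.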

How the data were processed

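Total RNA was labelled with an ENZO biotin kit and hybridised to 15 oligonucleotide arrays, per the labels. Deposited were linear intensity values, 1 per probe set, made by the authors with MAS5, per the submitters' processing notes, which give no version. Each array's 2% trimmed mean was 150.1, so a change of all RNA would not show, and low signals are noisy. Detection calls were not used here. Titles set the groups, although source names of GM4 DC name the stimulus at 0 h too and 1 protocol lacks doses and gradient.

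Of 12488 probe sets 66 controls were left out. By platform annotation 10833 had 1 symbol, 396 had several and 1193 had none. Values were taken as log2(signal + 16) from the deposited intensities and fitted in R 4.3.3 with limma 3.58.1: 6 group means, an intensity trend, 9 residual degrees of freedom, a prior of 4.76 and 11 contrasts. Fits were tested on simulated data. Where a gene had several probe sets, the brightest on average stood for it. Up to 4 genes with the largest differences among those that passed were named per list, and the 3 most and 1 least alike per member, by Pearson r; later levels of those genes, Trim21 at 20 h and the fall of Lat2 were added after seeing values. The members and lists were chosen with earlier results of these data known. Alternatives are named in the closing section.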

Additional observations from a re-analysis of the deposited data

How the results depend on the processing

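Each of the 44 differences of the 4 genes was recomputed under up to 27 alternatives, and these kept direction and side of the threshold except where given here, as log2 differences of GM4 minus GM or of later minus earlier time. The cause of each change was not tested. Fcgr1, Fcgr2b and Fcer1g stayed lower in GM4 DC at all 3 times under every alternative, including each scaling, while Fcgr3 had no stable sign.

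With the other probe set, calls were lost for Fcgr1 between cultures at 0 h (-0.69), from 0 to 20 h in GM4 DC (0.76) and from 6 to 20 h in GM4 DC (0.94), and for Fcer1g between cultures at 0 h (-0.12) and 20 h (-0.46) and from 0 to 20 h in GM DC (0.33). Fcer1g passed from 0 to 6 h in GM DC (0.61) and turned sign from 6 to 20 h in GM DC (-0.28), from 0 to 20 h (-0.004) and 6 to 20 h (-0.15) in GM4 DC and in the response to 6 h (-0.47).

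With the replicate block, 2 more calls were made between cultures at 20 h, Fcgr1 at -1.07 (adjusted p = 0.00278) and Fcgr2b at -1.38 (adjusted p = 0.036), and the Fcgr3 response to 6 h was -0.048. Same-numbered arrays of different groups deviated alike: every r was positive, from 0.0026 to 0.332, and 16 of 33 pairs were above 0.1. In 14 of 18 comparisons an array was most like its own number. No label says that a number marks a batch, and the main fit leaves the number out. Between GM4 0 h and 6 h all 3 pairs were above 0.1, and there the block changed no call of the 4 genes. The block moved calls between cultures from 1736 to 2116 at 0 h, 1383 to 1600 at 6 h and 584 to 766 at 20 h, and for the responses from 119 to 206 and 157 to 260.

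Fcgr1 at 20 h between cultures also passed at an offset of 1 (-1.08), an offset of 64 (-1.03), median centring (-1.07), a 40th percentile filter (-1.07), array weights (-1.07), the RNA quality covariate (-1.88), with only the 2 groups compared (-1.07) and without the 2 doubted arrays (-1.07). Fcgr2b passed with array weights (-1.03) and the covariate (-1.71) at 0 h, with only the 2 groups at 20 h (-1.38), from 0 to 20 h in GM DC with the covariate (1.19) and only the 2 groups (1.00), and from 0 to 20 h in GM4 DC with only the 2 groups (0.51). At 6 h it was lost with only the 2 groups (-1.88) and without the doubted arrays (-1.41), as was Fcer1g without the doubted arrays (-0.96). The Fcer1g step from 6 to 20 h in GM DC was lost at an offset of 1 (0.92), quantile normalization (0.81), no intensity trend (0.89), array weights (0.89) and only the 2 groups (0.89). That in GM4 DC passed with the filter (0.78), array weights (0.87), the covariate (0.81) and without the doubted arrays (0.78).

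Signs of uncalled values turned as follows. Fcgr3 between cultures was -0.19 with array weights at 0 h and 0.30 with the covariate at 20 h, from 6 to 20 h in GM4 DC -0.04 with array weights and -0.029 with the covariate, and its response to 6 h -0.012 with median centring. The Fcer1g response to 6 h was -0.06 at an offset of 64 and -0.05 with median centring, and to 20 h 0.04 with array weights and 0.089 without the doubted arrays. The Fcgr1 response to 20 h was 0.0 at an offset of 1, 0.13 with quantile normalization, 0.054 with array weights and 0.19 without the doubted arrays.

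Leaving out each array in turn gave, between cultures, -1.19 to -0.71 for Fcgr2b and -0.24 to 0.39 for Fcgr3 at 0 h, -2.41 to -1.41 for Fcgr2b, -0.10 to 0.31 for Fcgr3 and -1.62 to -0.96 for Fcer1g at 6 h, and -1.18 to -0.95 for Fcgr1, -1.45 to -1.31 for Fcgr2b and -1.61 to -1.19 for Fcer1g at 20 h. In GM DC it gave -1.86 to -0.93 for Fcgr2b and -0.082 to 0.41 for Fcgr3 from 0 to 6 h, 0.78 to 1.10 for Fcgr1 and 0.70 to 1.18 for Fcgr2b from 0 to 20 h, and 0.56 to 1.22 for Fcer1g from 6 to 20 h. In GM4 DC it gave -0.36 to 0.15 for Fcgr1 and -0.088 to 0.54 for Fcgr3 from 0 to 6 h, 0.88 to 1.07 for Fcgr1 and -0.07 to 0.56 for Fcgr3 from 0 to 20 h, and 0.83 to 1.33 for Fcgr1, -0.13 to 0.17 for Fcgr3 and 0.57 to 1.00 for Fcer1g from 6 to 20 h. Calls lost on leaving out 1 array are named in the results above. Gained were Fcgr2b between cultures at 0 and 20 h and from 0 to 20 h in GM DC, and Fcer1g from 6 to 20 h in GM4 DC, each without GM4 6 h replicate 1, and Fcgr1 between cultures at 20 h without GM 0 h replicate 3, GM4 6 h replicate 1 or GM4 6 h replicate 3. For the responses leaving out each array gave -0.29 to 0.34 for Fcgr3 and -0.32 to 0.35 for Fcer1g at 6 h, and -0.13 to 0.19 for Fcgr1 and -0.31 to 0.12 for Fcer1g at 20 h.

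Counts over all probe sets ranged under the alternatives from 964 to 2460 around 1736 between cultures at 0 h, 604 to 1600 around 1383 at 6 h and 146 to 766 around 584 at 20 h. In GM DC they were 1929 to 3237 around 3012 from 0 to 6 h, 2383 to 3670 around 3358 from 0 to 20 h and 1198 to 2358 around 2044 from 6 to 20 h. In GM4 DC they were 1381 to 3000 around 1970, 1392 to 3192 around 2606 and 566 to 2212 around 1452. For the responses they were 54 to 298 around 119 at 6 h and 15 to 304 around 157 at 20 h. Of the list counts, 4232 recomputed values were within 1.5 times and 406 were not. Signal over background limits Fcgr3 and the other Fcer1g probe set, and groups of 2 arrays limit every 20 h value.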

Other observations

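Fcer1g and Tyrobp, both of which encode ITAM adaptors, went opposite ways after stimulation. Tyrobp signal was 1554 ± 339 (SD, n = 3), 1002 ± 133 (SD, n = 2) and 234 ± 16.3 (SD, n = 2) in GM DC at 0, 6 and 20 h, and 838 ± 165 (SD, n = 3), 463 ± 21.9 (SD, n = 3) and 229 ± 5.33 (SD, n = 2) in GM4 DC. From 0 to 20 h it fell, with changes of -2.63 ± 0.19 (adjusted p = 2.06e-07 in limma) and -1.78 ± 0.19 (adjusted p = 1.25e-05), while the main Fcer1g probe set rose by 1.44 ± 0.26 and 1.35 ± 0.26. The cultures, apart at 0 h for Tyrobp, were within 1 SD of each other at 20 h, whereas those for Fcer1g stayed apart.

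The Fcer1g probe sets, of which one read 101 to 762 as group means and the other at most 16.4 on each array, cannot be weighed against each other without probe sequences, which were not used here. The Fcgr2b probe set and Ccr1, its closest match, both had their lowest group in GM4 DC at 6 h and their highest in GM DC at 20 h. Ccr1 was picked by its r with Fcgr2b over these same arrays, so this likeness follows largely from the choice.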
